A study of Mus musculus with 17 samples.

Results

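The genes described here are the ATP-binding cassette (ABC) transporter genes of the mouse other than Abcb1a, Abcb1b and Abcb4, the genes of the P-glycoprotein branch. They were chosen by name, as every probe that is no control and whose gene name is Abc, a letter from a to g and a number. This rule, with the genes it leaves out, was set with earlier results of these data known. This gave 47 gene names with 104 of the 56605 probes on the array, which carries 37074 gene or transcript names in all. For each gene the probe with the highest mean log2 value in the authors' table was used, which left 40 genes with 1 probe each. These are 12 genes of subfamily A, 6 of B, 9 of C, 3 of D, 1 of E, 3 of F and 6 of G. The other 7 genes, Abca6, Abca13, Abca15, Abca16, Abcb5, Abcc12 and Abcd2, have no probe in that table and are described by their detection alone.

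ABC proteins bind and hydrolyse ATP, and most of them use its energy to move sterols, lipids, conjugates, peptides or drugs across a membrane. Members of subfamilies E and F lack membrane-spanning segments and act on ribosomes, and Abcc8 and Abcc9 are regulatory subunits of potassium channels. In the gut, Abcg2 and Abcc2 sit in the apical membrane and return compounds to the lumen, Abcc3 exports conjugates and bile acids toward the blood, and Abcg5 with Abcg8 returns plant sterols to the lumen. PXR, encoded by Nr1i2, is a nuclear receptor that senses foreign compounds and steroids and is known for switching on drug-metabolizing enzymes and exporters.

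RNA of the colon was measured on 17 arrays of 1 colour from male C57Bl6/J mice, in 4 groups. Wild-type mice are called WT, with 4 arrays from controls (CONT) and 4 from treated mice (PCN), and Pxr-/- mice gave 5 CONT and 4 PCN arrays. The steroid pregnenolone 16α-carbonitrile (PCN) activates PXR of rodents and was injected intraperitoneally at 100 mg/kg every day for 4 days, dissolved in corn oil, and controls were injected with the oil. All mice were killed 6 h after the last injection, with 6 mice allocated to each group. WT mice were bought at an age of 6 weeks and the Pxr-/- line had been bred in house for 10 years, so that the genotype and the origin of the mice cannot be told apart, and both had 2 weeks to acclimatize. Arrays are named by group and replicate number, and values are quantile-normalized log2 signals, on which a difference of 1 is a doubling.

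Several arrays stood apart before any comparison. WT PCN 4 and Pxr-/- PCN 2 were near-identical, with an SD of 0.172 for the log2 difference over probes, and so were WT PCN 3 and Pxr-/- CONT 2, with 0.198, while the other pairs of arrays gave 0.297 to 0.616. Over the 40 ABC genes the mean absolute difference was 0.0806 and 0.0877 in these pairs and 0.144 to 0.661 in the others. Each pair joins different groups, so the counts of called genes are given with all 17 arrays and again with the 13 arrays that remain without these 4. Differences are from all 17 arrays unless the 13 are named. The Nr1i2 probe read 11.97 to 12.31 in WT CONT, 11.10 to 12.44 in WT PCN, 10.39 to 11.61 in Pxr-/- CONT and 10.95 to 11.93 in Pxr-/- PCN, and the lowest WT values came from WT PCN 3 and WT PCN 4. Whether this probe lies in the deleted part of the gene is not stated in the sources used here. Colonocyte markers (8 genes, mean log2 14.53 to 15.11) were high on every array, and the labels name the tissue as colon. Markers of pancreas (8 genes) had a mean of 17.69 in WT CONT 4, 15.60 in WT PCN 3, 15.55 in Pxr-/- CONT 2 and 11.41 in WT PCN 1, against 6.61 to 7.08 elsewhere. Markers of liver (7 of 8 genes tested) had a mean of 10.78 in WT CONT 5, 8.64 in WT PCN 1 and 8.37 in WT PCN 2, against 6.16 to 6.98 elsewhere.

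The first question was whether PCN changes these transporters in the colon of WT mice. A gene was called at a limma adjusted p (false discovery rate) of at most 0.05 with a fold change over 1.5, and 0 of 40 ABC genes were called with all 17 arrays, where 0% of the 38703 tested probes were called. At an unadjusted p under 0.05 there were 0 of 40, against 4.66% of all probes. The median difference of the 40 genes was 0.03 on the log2 scale (24 above 0 and 16 below), and that of all probes was 0. Without the 4 near-identical arrays, 0 of 40 were called against 0.0491% of all probes, and 1 of 40 had an unadjusted p under 0.05 against 4.68%. In that fit the 3 genes left out by the rule were called, with differences of 1.36 for Abcb1a, 1.49 for Abcb1b and 1.46 for Abcb4 (limma adjusted p 0.00622 to 0.00664), while all 17 arrays gave 0.26, 0.36 and 0.32, which were not called.

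**Figure D1:**
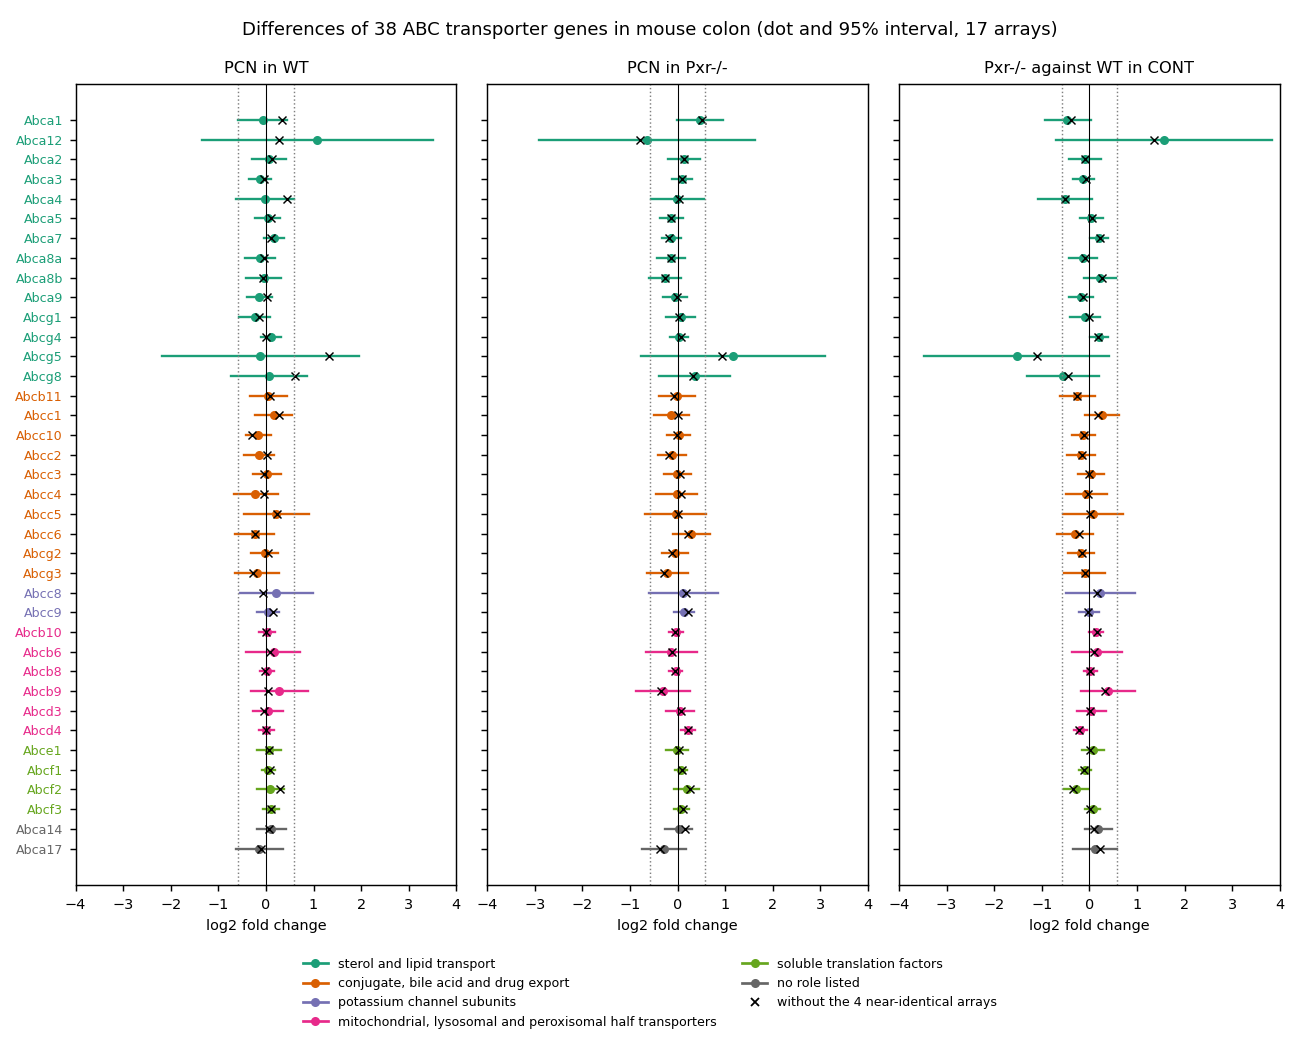
Log2 fold change of 38 ABC genes in 3 comparisons, with the gene names in the colour of their role. Dots with lines are the estimate and its 95% interval from all 17 arrays, crosses the estimate without the 4 near-identical arrays, and dotted lines a fold change of 1.5. No gene was called in any panel, and the widest intervals are those of Abca12 and Abcg5.

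Among the 10 exporters of conjugates, bile acids and drugs, 4 lay above 0 and 6 below for PCN in WT, with differences between -0.24 and 0.22, and in the 13 arrays 5 lay on either side, between -0.29 and 0.27. Abcg2, the breast cancer resistance protein, read 13.23, 13.26, 13.92 and 13.27 in WT CONT and 13.49, 13.43, 13.22 and 13.31 in WT PCN. All WT PCN values lay within the range of WT CONT apart from WT PCN 3, which was 0.01 lower. The upper end of that range is WT CONT 4 alone, the array highest in pancreas markers. The other WT CONT arrays read 13.23 to 13.27, below WT PCN 1, WT PCN 2 and WT PCN 4. The difference was -0.03 ± 0.14 (SE), with a 95% interval of -0.32 to 0.26, and 0.04 (interval -0.36 to 0.44) in the 13 arrays. Under the alternative settings, which include single arrays left out, it ranged from -0.11 to 0.11.

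Abcc3 read 13.88, 13.96, 14.14 and 13.73 in WT CONT and 13.73, 14.05, 14.07 and 13.95 in WT PCN, all within the range of WT CONT. Its difference was 0.03 ± 0.14 (SE, 95% interval -0.27 to 0.32). With 13 arrays it was -0.04 (interval -0.44 to 0.36). Abcc2 read 6.50, 6.27, 6.01 and 6.63 in WT CONT and 6.31, 6.46, 6.07 and 5.98 in WT PCN, again overlapping. Its difference was -0.15 ± 0.15 (SE, interval -0.47 to 0.16), and 0.03 (interval -0.36 to 0.42) without the near-identical arrays. The intervals of these 3 exporters with all 17 arrays lay between -0.47 and 0.32, inside a fold change of 1.5 in either direction.

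The other exporters, Abcb11 (the bile salt export pump), Abcc1, Abcc4, Abcc5, Abcc6, Abcc10 and Abcg3, gave differences from -0.24 (Abcc6) to 0.22 (Abcc5), and every one of their intervals held 0. Abcb11 was well above background on 7 of the 17 arrays. Its 2 highest values, 6.51 in WT CONT 5 and 5.90 in WT PCN 1, fell on the 2 arrays with the highest liver markers, and the part of liver RNA in them was not tested.

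The 14 genes of sterol and lipid transport gave a median of -0.03 for PCN in WT (6 above 0, 8 below), and of 0.10 in the 13 arrays (10 above, 4 below), so their balance turned with the 4 near-identical arrays. The largest difference among them was that of Abca12 with all 17 arrays, 1.08 ± 1.13 (SE), which was 0.27 ± 1.5 in the 13 arrays, where Abcg5 was largest. The 8 organelle transporters, which serve mitochondria, lysosomes and peroxisomes, gave a median of 0.03 (7 above 0, 1 below), with Abcb9 highest at 0.28, and a median of -0.01 in the 13 arrays (4 above, 4 below), where Abcb9 gave 0.05. The 2 channel subunits gave 0.22 (Abcc8) and 0.04 (Abcc9), and -0.06 and 0.14 in the 13 arrays. The chosen probes of the 4 soluble translation factors gave 0.04 to 0.10, and 0.07 to 0.30 in the 13 arrays. Without the near-identical arrays the translation factor Abcf2, a protein associated with ribosomes, was the gene with an unadjusted p under 0.05, with a difference of 0.30 ± 0.10 (SE, limma adjusted p 0.82). It read 10.25, 10.02, 9.83 and 9.94 in WT CONT and 10.07, 10.55, 9.78 and 10.15 in WT PCN. The WT PCN values surround those of WT CONT. Leaving out the near-identical arrays keeps only 10.07 and 10.55 of them, and with WT PCN 2 alone left out the difference was -0.03.

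In Pxr-/- mice, PCN again gave 0 called of 40, where 0.00517% of all probes were called (0.0517% without the 4 near-identical arrays). With all 17 arrays, 1 of 40 had an unadjusted p under 0.05, which is 2.5% against 7.35% of all probes, and without the 4 arrays 3 of 40, which is 7.5% against 7.19%. The median difference of the 40 genes was -0.01, beside 0.01 for all probes.

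The gene with an unadjusted p under 0.05 was Abcd4, which works with the lysosomal export of cobalamin (vitamin B12). It read 10.40, 10.53, 10.46, 10.33 and 10.51 in Pxr-/- CONT and 10.58, 10.64, 10.58 and 10.82 in Pxr-/- PCN. All 4 PCN values lay above all 5 CONT values. The difference was 0.22 ± 0.07 (SE, limma adjusted p 0.487) with all 17 arrays and 0.22 ± 0.09 (adjusted p 0.625) without the near-identical ones.

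In the fit to 13 arrays, Abca1 and Abcf2 joined it. Abca1, which loads cholesterol onto apolipoproteins, read 8.57, 8.36, 8.62, 9.05 and 8.54 in Pxr-/- CONT and 9.05, 8.73, 9.21 and 9.34 in Pxr-/- PCN. The lowest PCN value, 8.73, came from Pxr-/- PCN 2, a near-identical array. The difference was 0.46 ± 0.23 (SE, limma adjusted p 0.696) with all 17 arrays and 0.52 ± 0.19 (adjusted p 0.598) without these 4. The other tested probe of Abca1 gave -0.22 ± 0.52, so the direction did not hold across its probes. Abcf2 read 9.58, 9.89, 9.78, 9.73 and 9.60 in Pxr-/- CONT and 9.75, 9.99, 10.04 and 9.89 in Pxr-/- PCN, with a difference of 0.26 ± 0.09 (adjusted p 0.554) without the near-identical arrays.

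The comparison of Pxr-/- CONT with WT CONT asks what the loss of PXR, together with the origin of the mice, does without a ligand. Of the 40 genes, 0 were called, as were 0% of all probes. Unadjusted p-values under 0.05 were reached by 6 of 40, which is 15% against 12.7% of all probes, with 3 higher in Pxr-/- (6.17% of all probes) and 3 lower (6.52%). In the 13 arrays there were 5 of 40, which is 12.5% against 10.1%, with 1 higher (4.49% of all probes) and 4 lower (5.59%). The share among the ABC genes was thus near that of all probes in both fits.

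Among the genes lower in Pxr-/- CONT, Abcd4 read 10.55, 10.73, 10.60 and 10.65 in WT CONT, all above the 10.33 to 10.53 of Pxr-/- CONT given before. Its difference was -0.19 ± 0.07 (SE, limma adjusted p 0.296), and -0.21 ± 0.08 (adjusted p 0.42) without the near-identical arrays. WT PCN and Pxr-/- PCN lay at 10.54 to 10.69 and 10.58 to 10.82, so Pxr-/- CONT was the group with the low values, and it is shared by both comparisons in which Abcd4 stood out. The chosen probe lies on chromosome 12 from 85943772 to 85943831, in the mm9 coordinates of the array files.

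Abcf2 was another of them, at -0.28 ± 0.12 (limma adjusted p 0.372) with all 17 arrays and -0.34 ± 0.08 (adjusted p 0.188) without the near-identical ones. With all arrays its groups met, since 9.89 of Pxr-/- CONT 2 exceeded 9.83 of WT CONT 4, and without that near-identical array they did not. Abca1 read 9.23, 8.80, 8.79 and 9.48 in WT CONT, overlapping Pxr-/- CONT, and its difference was -0.46 ± 0.23 (adjusted p 0.418) and -0.38 ± 0.17 (adjusted p 0.493) in the fits with and without the 4 arrays. Its other tested probe gave 0.27 ± 0.52.

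Abca7 and Abcg4 were among the genes higher in Pxr-/- CONT. Abca7, a relative of Abca1 that moves phospholipids, read 13, 13.07, 13.25 and 13.08 in WT CONT and 13.17, 13.28, 13.31, 13.28 and 13.49 in Pxr-/- CONT. Only WT CONT 4 reached into the Pxr-/- range, and the difference was 0.21 ± 0.09 (SE, limma adjusted p 0.37). Its other tested probe gave -0.10 ± 0.12.

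Abcg4, a sterol transporter related to Abcg1, read 8.48, 8.83, 8.76 and 8.56 against 8.84, 8.96, 8.91, 8.73 and 8.89, a difference of 0.20 ± 0.09 (limma adjusted p 0.377). The groups of Abcg4 overlapped in part. In the 13 arrays Abcb10, a mitochondrial transporter linked to haem synthesis, was the gene higher in Pxr-/- CONT, with 0.17 ± 0.08 (adjusted p 0.493), and it read 10.70, 10.57, 10.54 and 10.57 against 10.78, 10.61, 10.76, 10.68 and 10.84.

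**Figure D2:**
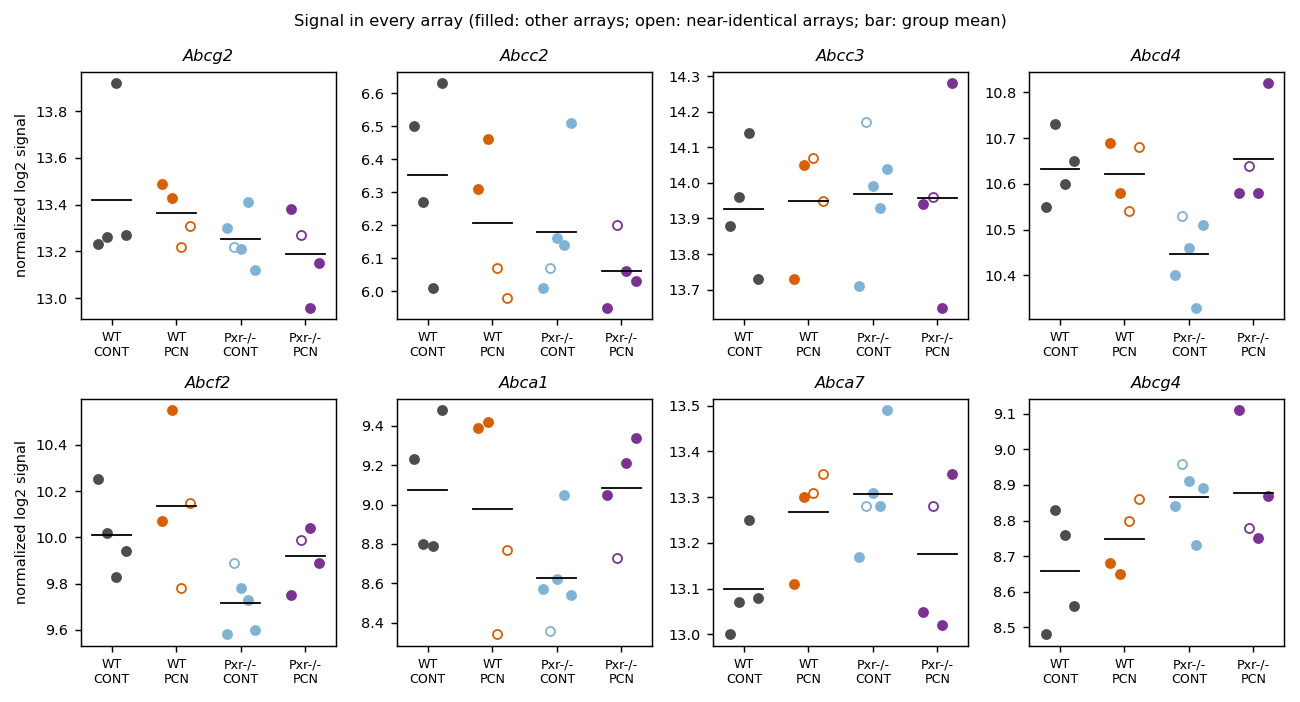
Normalized log2 signal of 3 exporters (Abcg2, Abcc2, Abcc3) and 5 genes with an unadjusted p under 0.05 in some comparison, by group, with an axis for each gene. Each point is an array, open points are the near-identical arrays and bars are group means. Abcd4 shows all Pxr-/- CONT points below all WT CONT points, and the exporters overlap in every comparison.

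The interaction asks whether PCN acts differently in the genotypes. Again 0 of 40 genes were called, as were 0% of all probes (0.00258% without the near-identical arrays). With all arrays 3 of 40 had an unadjusted p under 0.05, which is 7.5% against 5.38% of all probes. Among them were Abcd4 (0.21 ± 0.10) and Abca7 (-0.30 ± 0.13), both with a limma adjusted p of 0.848. Without the near-identical arrays 0 of 40 remained against 2.95%, and the differences of Abcd4 and Abca7 were 0.22 and -0.29.

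By subfamily, 6 of the 6 B genes lay above 0 for PCN in WT and 0 of 6 for PCN in Pxr-/-, with medians of 0.04 and -0.09. Over all probes 49.9% lay above 0 in the former and 52% in the latter. With 13 arrays the counts were 4 of 6 and 0 of 6. Apart from Abcb11, these B genes serve mitochondria or lysosomes. The 12 A genes had 5 above 0 for PCN in WT and 8 without the near-identical arrays, and the 6 G genes had 2 and 4, so the balance of direction in these subfamilies turned with 4 arrays. The chosen probes of the 3 F genes lay above 0 for PCN in both genotypes in both fits, with medians of 0.08 to 0.11. Their other tested probes did not keep this direction. With all arrays, those of Abcf1 gave -0.13 to 0.03 for PCN in WT and -0.05 to 0.24 for PCN in Pxr-/-. Those of Abcf3 gave -0.05 and -0.01 for PCN in WT, and 0.07 and -0.02 for PCN in Pxr-/-. All these subfamily counts are of chosen probes, and none includes a called gene.

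The ABC genes differed widely in how much arrays of the same group varied. The SD within groups, after the bath was fitted, had a median of 0.22 over the 40 genes and 0.17 over all probes, and 29 of 40 lay above the latter. Among the 10% of probes with the largest SD were 8 of the 40 genes, namely Abca12 (1.74), Abcg5 (1.49), Abcg8 (0.57), Abcc8 (0.55), Abcc5 (0.48), Abca4 (0.43), Abcb9 (0.43) and Abcb6 (0.40). These are the SDs of the chosen probes. For PCN in WT the chosen probe of Abcc5 had a SE of 0.32, and its other tested probes had smaller ones, 0.11 to 0.26. At the other end were Abcf1 (0.07), Abcd4 (0.08), Abcb8 (0.08), Abcb10 (0.09) and Abcf3 (0.10). Abcf1 and Abcf3 act in translation and Abcb8 and Abcb10 in the inner mitochondrial membrane.

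**Figure D3:**
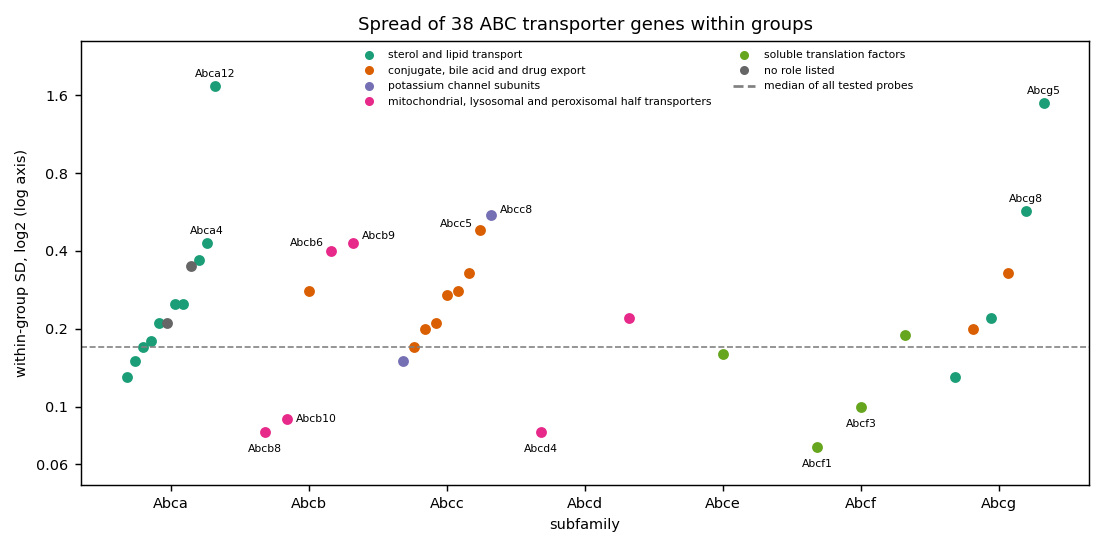
SD of the normalized log2 signal within groups for 38 ABC genes by subfamily, on a log axis, with the genes at both ends named. The dashed line is the median of all tested probes, 0.17, and Abca12 (1.74) and Abcg5 (1.49) lie far above the other genes plotted.

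Abcg5 and Abcg8 form the obligate pair that pumps sterols, and their genes lie head to head on chromosome 17. Their array signals went together. Abcg5 read 9.66, 10.35, 8.64 and 9.67 in WT CONT, 12.34, 9.48, 6.84 and 8.39 in WT PCN, 9.44, 6.76, 7.25, 7.58 and 9.61 in Pxr-/- CONT and 9.92, 8.40, 10.55 and 7.97 in Pxr-/- PCN. Abcg8 read 7.97, 8.64, 7.71 and 8.20, then 9.61, 7.86, 7.29 and 7.62, then 7.81, 7.37, 7.40, 7.45 and 8.10, and then 8.34, 7.57, 8.24 and 7.61 in the same order. WT PCN 1 was the highest array for both, and within each group arrays spread over more than the groups differed. PCN in WT gave -0.12 ± 0.97 (SE) for Abcg5 and 0.07 ± 0.37 for Abcg8 with all 17 arrays, and 1.33 ± 0.96 and 0.61 ± 0.42 without the near-identical ones (limma adjusted p 1.00 for both).

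Promoter windows of this pair are shown because they overlap on the same stretch. Another window of Abcg8, which starts at chr17:84676052, is not shown. RefSeq (GRCm38.p6) places the window of Abcg5 at chr17:84682962-84683261 on the minus strand. The window of Abcg8 shown lies at chr17:84682871-84683170 on the plus strand. Each runs from 250 bases before the start of the transcript to 50 after it. The windows share 209 bases, which are the reverse complement of each other, and the starts lie 110 bases apart. In the lines below, 5′ to 3′ on each gene's own strand, capitals mark the letters AGATAA on either strand, the core that GATA factors of the gut bind.
Abcg5: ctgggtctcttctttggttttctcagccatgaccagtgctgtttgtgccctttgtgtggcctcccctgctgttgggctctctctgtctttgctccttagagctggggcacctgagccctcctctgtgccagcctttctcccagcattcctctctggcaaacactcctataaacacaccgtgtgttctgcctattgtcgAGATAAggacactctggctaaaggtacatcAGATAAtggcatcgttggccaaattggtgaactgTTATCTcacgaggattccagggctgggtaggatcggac
Abcg8: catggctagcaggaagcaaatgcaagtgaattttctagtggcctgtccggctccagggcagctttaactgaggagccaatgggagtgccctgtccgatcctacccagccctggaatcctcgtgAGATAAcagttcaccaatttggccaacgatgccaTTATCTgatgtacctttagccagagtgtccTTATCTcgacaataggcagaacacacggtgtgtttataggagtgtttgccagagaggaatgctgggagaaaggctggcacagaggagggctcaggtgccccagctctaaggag
The same 3 matches lie in both windows, within the shared stretch, which also holds 1 match of AGTTCA, a half-site letter string of nuclear receptors. AGATAA is found on either strand in 11.2% of the 32851 windows of the table and in 6 of the 42 windows of the 35 ABC genes that matched it, which are those of Abca12, Abca14, Abca16, Abcf2, Abcg5 and Abcg8. AGTTCA is in 14.0% of all windows and in 10 of the 42, and AGGTCA in 16.3% and in 7. Paired copies of AGTTCA on the same strand with 4 bases between them were in 0 of the 42 ABC windows and in 4 of all windows.

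The variable genes were then set beside markers of the distal colon. The distal colon list, the mean log2 of the 5 posterior Hox genes Hoxa13, Hoxb13, Hoxd11, Hoxd12 and Hoxd13, ran from 6.35 in Pxr-/- PCN 4 to 10.44 in Pxr-/- PCN 3. The 8 arrays highest on it (9.11 to 10.44) are WT CONT 2, 3 and 5, WT PCN 1, Pxr-/- CONT 1 and 5, and Pxr-/- PCN 1 and 3, and the others lay at 8.52 or below. Hoxb13 itself read 7.53 in Pxr-/- PCN 4 and 12.88 to 16.09 on the other arrays. Hoxd11 and Hoxd12 were well above background on 4 and 11 arrays. Hoxb13, Hoxd12 and Hoxd13 each read higher on all of these 8 arrays than on any other. Hoxa13 did not split this way, with 9.36 to 9.82 on these 8 and 7.83 to 9.88 on the others. Of the 8 arrays with the highest Abcg5, 7 were among these 8, and the same holds for Abcg8. Of the 8 highest arrays of either gene, 7 were also among the 8 highest for liver markers, a tissue that expresses both genes strongly. Liver means were 6.88 to 6.98 on 5 of those 8 arrays. Among the liver markers, Ttr read 10.54 to 11.60 on the 8 arrays highest on the distal list and 7.69 to 9.66 on the others. No other tested liver marker split this way, so the rank on liver markers and that on the distal list are partly shared through Ttr. The arrays highest in liver markers, WT CONT 5, WT PCN 1 and WT PCN 2, read 9.67, 12.34 and 9.48 for Abcg5. WT CONT 3, with a liver mean of 6.98, read 10.35. The part of liver RNA in Abcg5 and Abcg8 was not tested.

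Abca12, a lipid transporter known from keratinocytes, ran the other way. It read 4.73 to 6.47 on the 8 arrays highest on the distal list and 8.07 to 9.42 on the other 9, with no overlap. Its lowest signals were in WT PCN 1 (4.73), WT CONT 3 (4.86) and Pxr-/- PCN 3 (4.86), and its highest in Pxr-/- PCN 4 (9.42). It was well above background on 14 of the 17 arrays. Of those 8 arrays, 3 are of the 4 in WT CONT, 1 of the 4 in WT PCN and 2 of the 5 in Pxr-/- CONT. The difference of Abca12 was 1.08 for PCN in WT and 1.56 ± 1.06 for Pxr-/- CONT against WT CONT, and 0.27 and 1.36 ± 1.22 in the 13 arrays.

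Abcc8, the sulfonylurea receptor, Abcc5, an exporter of cyclic nucleotides, Abcb9, a lysosomal peptide transporter, and Abcb6, a porphyrin transporter, followed the order of Abca12. Of the 8 arrays with the highest signal of each, 0 were among the 8 highest on the distal list, and 7 (Abcc5 and Abcb9) or 8 (Abcc8 and Abcb6) were among the 8 lowest. Only the chosen probes were set beside the list. Abcc8 ran from 8.08 in Pxr-/- PCN 3, the array highest on the list, to 10.12 in Pxr-/- PCN 4, the array lowest on it. Of the 8 highest arrays of each of these genes and of Abca12, 7 were also among the 8 highest for smooth muscle markers (6 genes, mean log2 14.96 to 15.86). The 4 near-identical arrays all lay outside the 8 highest on the distal list. Over the 13 arrays, the 5 others all read above these 8 for Abca12, Abcc8, Abcc5, Abcb9 and Abcb6, and Abcg5 and Abcg8 again had 7 of their 8 highest arrays among the 8. Abca4, known as a retinoid transporter of the eye, showed no such order, with 4 of its 8 highest arrays at either end of the distal list.

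**Figure D4:**
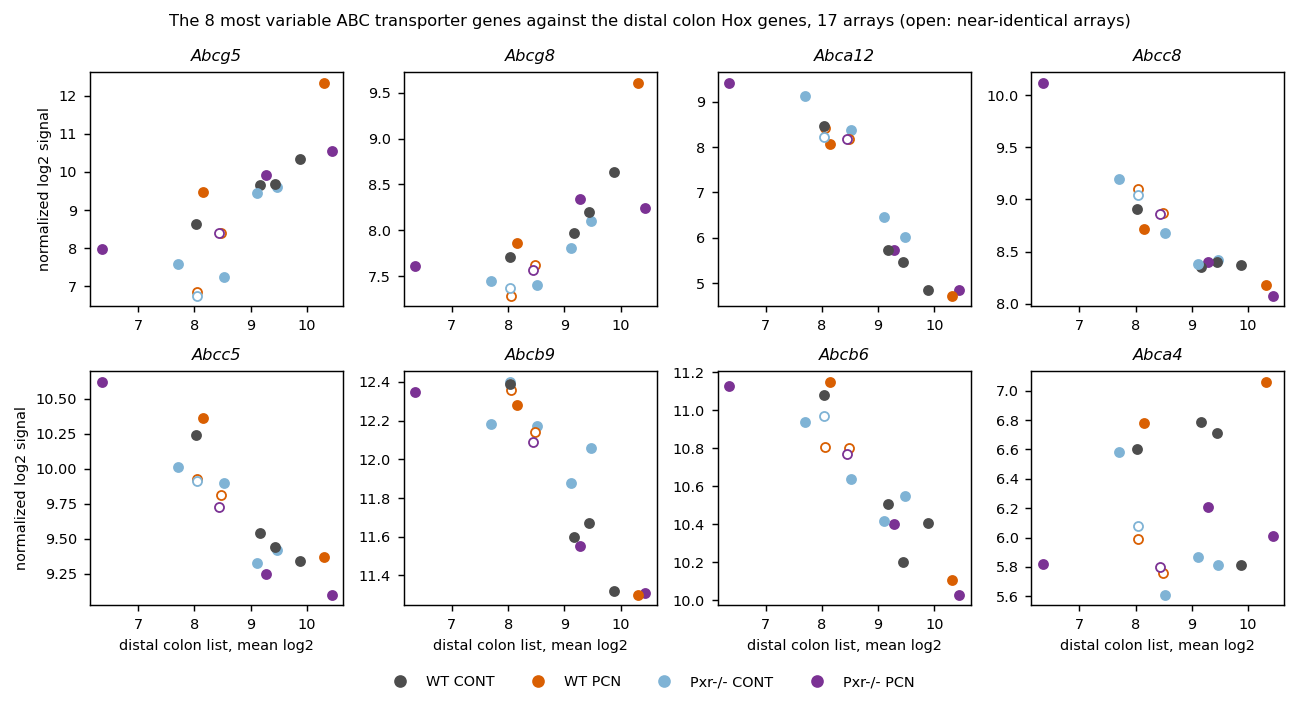
Normalized log2 signal of the 8 ABC genes with the largest SD within groups against the mean log2 of the distal colon list, with 1 point per array in the colour of its group and open points for the near-identical arrays. Abcg5 and Abcg8 are highest on the right, Abca12, Abcc8, Abcc5, Abcb9 and Abcb6 on the left, and Abca4 has no order, with each group spread along the axis.

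The samples are bulk tissue, so fewer cells of a type and less RNA per cell cannot be told apart in these signals. The part of the colon segment, of liver RNA, of smooth muscle or of any cell type in the pattern was not tested.

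The 7 genes without a chosen probe were at or near background. Abca15, Abca16 and Abcb5 were well above background on 0 of 17 arrays, Abcc12 on 1, Abca6 on 2, Abcd2 on 4 and Abca13 on 6, counting the probe of each with the most such arrays. Abcd2 is a transporter of peroxisomes, and its relative Abcd3 was well above background on every array, at 13.68 to 14.33.

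Where a gene had more tested probes, they often went different ways. For 19 genes there were 30 other tested probes, of which 20 had the sign of the chosen probe after PCN in WT mice, 19 after PCN in Pxr-/- mice, 16 in Pxr-/- CONT against WT CONT and 21 for the interaction. Abcf1 is an example. Its chosen probe differed by -0.09 ± 0.06 between Pxr-/- CONT and WT CONT, and its 4 others by -0.56 ± 0.11, -0.42 ± 0.11, 0.03 ± 0.10 and 0.20 ± 0.07 (limma adjusted p 0.184, 0.216, 0.916 and 0.308). The other probe of Abcc10 gave -0.46 ± 0.09 (adjusted p 0.184) beside -0.13 ± 0.11 for the chosen one. None of the 30 was called.

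Genes that work with the ABC transporters were read alongside. Of 11 sterol sensing and efflux partners 10 were tested, and 0 were called in any comparison with or without the near-identical arrays. In Pxr-/- CONT against WT CONT, 4 of the 10 were lower at an unadjusted p under 0.05 and 0 higher, beside the 6.52% over all probes. These were Nr1h3 (the sterol receptor LXRα, -0.59 ± 0.24), Apoe (-0.51 ± 0.16), Mylip (which degrades the LDL receptor, -0.37 ± 0.16) and Pltp (a phospholipid transfer protein, -0.25 ± 0.10), with limma adjusted p 0.268 to 0.371. With 13 arrays 2 of them, Apoe and Pltp, kept an unadjusted p under 0.05. On the 8 arrays highest on the distal list Nr1h3 read 10.86 to 11.66 and Mylip 10.22 to 10.67. On the others they read 10.02 to 10.80 and 9.84 to 10.28, apart from 11.06 and 10.73 in Pxr-/- PCN 4. Apoe and Pltp overlapped between these sets of arrays. WT CONT has the larger share of arrays high on the list, and the part of the colon segment in these differences was not tested.

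Apoe, the apolipoprotein that takes up cholesterol released by Abca1 and Abcg1, read 15.63, 15.13, 15.05 and 15.89 in WT CONT and 14.99, 15.02, 14.74, 15.08 and 14.84 in Pxr-/- CONT. The groups met at WT CONT 4 (15.05) and Pxr-/- CONT 4 (15.08). WT CONT 5, its highest array, is the array with the most liver transcripts, and WT CONT 2, the next, has liver markers at 6.93. Macrophage markers (6 genes) had a mean log2 of 11.60 to 12.32 in WT CONT and 11.31 to 11.73 in Pxr-/- CONT. Within WT CONT they were highest in WT CONT 5 (12.32) and next in WT CONT 2 (12.05), as was Apoe. Abca1 in WT CONT was likewise highest in WT CONT 5 (9.48) and next in WT CONT 2 (9.23). Adipocyte markers (6 genes) had a mean log2 of 9.61 to 11.08 in WT CONT and 8.95 to 10.39 in Pxr-/- CONT, with group means of 10.37 and 9.28, and WT CONT 5 was again the highest array. The part of these cell types in the sterol genes was not tested.

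Of 21 solute carriers of drugs and bile acids, 20 were tested and 0 called. For PCN in WT, 9 lay above 0 and 11 below (11 and 9 in the 13 arrays), with 0 at an unadjusted p under 0.05. With all 17 arrays their SEs for PCN in WT ran from 0.08 (Slc28a1) to 2.02 (Slc51a), so large differences of some could go uncalled. Slc51a read 5.55 to 8.40 on the 8 arrays highest on the distal list and 10.39 to 15.70 on the others. Of the 6 peroxisome partners and the 3 ABC proteins that carry other names (Cftr, Tap1 and Tap2), 0 were called and 0 had an unadjusted p under 0.05 in any comparison with all 17 arrays. Kcnj8, the channel that pairs with Abcc9, gave 0.47 ± 0.23 for PCN in WT and 0.35 ± 0.22 for PCN in Pxr-/-, and 0.62 ± 0.30 and 0.31 ± 0.27 in the 13 arrays, and none of these was called.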

How the data were processed

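Colon RNA was hybridized to 1-colour Agilent arrays, of which 17 are used here. The authors deposited scanner output of Feature Extraction 10.10.1.1 (per the processing notes), in which intensity is the unnormalized brightness of a spot and other columns are flags. They also deposited a table of log2 values that, per the methods, was filtered, corrected for the wash bath and normalized by CrossNorm, for which quantile normalization stands in here. Median intensities of 59305 spots were taken as log2 without outlier spots (74 to 142 per array), quantile-normalized and averaged per probe. Between 61.0% and 69.7% of probes were well above background (median background 20.0 to 28.0), and 0 spots were saturated. The number of arrays limits the precision. Nothing in the labels says more about replicates than their numbers, so p-values measure the spread between these samples. The fit to all 17 arrays counts the near-identical arrays as separate samples, and the labels cannot settle whether they are.

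Probes well above background on at least 4 arrays were tested in limma 3.58.1 (R 4.3.3) with group and wash bath (2 baths, 8 slides) as terms and Benjamini-Hochberg adjustment over all probes. The fit was tested on simulated data. The genes, gene lists and tests were chosen with earlier results of these data known. Every array is given for genes that were called or had an unadjusted p under 0.05, at most 8 per comparison. Counts are over all 40 genes, of which 2 are not reported singly here. Abcg2, Abcc2, Abcc3, the 8 genes of largest spread, Abcf1, Abcc10 and the partners named were picked after their values were seen. Alternatives were the deposited log2 table, processed scanner signal minus the 75th percentile, normexp with an offset of 50, other filters on dim probes, no bath term, slides as blocks, a replicate block, only the groups compared, single arrays left out, other thresholds, every probe of a gene, and trend with robust fitting. A distal colon covariate and the fit without WT CONT 5 and Pxr-/- PCN 4 were added after the data were seen, as were single differences of other probes. The levels of liver arrays reported for the same design were not analysed here.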

Additional observations from a re-analysis of the deposited data

Results flagged for a closer look

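Of 152 combinations of a gene and a group, 9 held an array with a gap to its group that passed Dixon's 95% critical value, as chance alone does in roughly 1 group of 20. On the high side in WT CONT were Abcb11 in WT CONT 5 (log2 signal 6.51, next 5.43), Abcc8 in WT CONT 4 (8.91, next 8.40) and Abcg2 in WT CONT 4 (13.92, next 13.27). In WT PCN, Abca12 was low in WT PCN 1 (4.73, next 8.07), Abca5 low in WT PCN 4 (6.65, next 6.92), Abcb11 high in WT PCN 1 (5.90, next 5.60) and Abcf1 high in WT PCN 2 (13.04, next 12.91). In the Pxr-/- groups, Abca2 was low in Pxr-/- CONT 5 (7.78, next 8.05) and Abca8b high in Pxr-/- PCN 4 (8.05, next 7.42). WT CONT 5 and WT PCN 1 have the highest liver markers (10.78 and 8.64), WT CONT 4 the highest pancreas markers (17.69), WT PCN 1 a high distal colon list (10.31) and Pxr-/- PCN 4 the lowest one (6.35).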

How the results depend on the processing

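The count of called ABC genes stayed at 0 in each of the 4 comparisons under every alternative that kept a false discovery rate of 0.05, with and without the fold threshold. These include the added fits with the distal colon list as a covariate and without WT CONT 5 and Pxr-/- PCN 4. Only the threshold of an unadjusted p under 0.05 moved it, to 1 for PCN in Pxr-/-, 6 for Pxr-/- CONT against WT CONT and 3 for the interaction. With single arrays left out the count ranged from 0 to 0. The fit restricted to the groups compared has no counterpart for the interaction. The 12 single differences given with an unadjusted p under 0.05 in either fit kept their sign for the chosen probe under all settings but 1, since Abcf2 for PCN in WT was -0.03 without WT PCN 2 and 0.22 without WT PCN 3. Other tested probes, added after the data were seen, turned the sign of Abca1 for PCN in Pxr-/- (-0.22) and of Abca1 (0.27) and Abca7 (-0.10) in Pxr-/- CONT against WT CONT. Abcd4 in Pxr-/- CONT against WT CONT ranged from -0.22 to -0.15, and its lowest adjusted p was 0.172.

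Of 22 same-numbered pairs of arrays, 11 correlated over 0.1 in their deviations from the group means (r from -0.33 to 0.49). Pairs with different numbers were not compared, so this cannot decide whether the shared replicate numbers pair the arrays. With the replicate block 0 ABC genes were called in each comparison. With 4 or 5 arrays per group, differences within the intervals given are not excluded by these data.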
